A study of Mus musculus with 6 samples.

Results

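Laminins, nidogens and perlecan are the non-collagen backbone of basement membranes, the thin sheets of matrix that lie under endothelium and around smooth muscle, fat and nerve fibres. A laminin is a cross-shaped trimer of 1 alpha, 1 beta and 1 gamma chain, which cells bind through integrins and dystroglycan. Nidogens link the gamma chain to the collagen IV network, and perlecan, a heparan sulfate proteoglycan, ties both to growth factors and to the cell surface. In blood vessels the endothelium and the smooth muscle both secrete these proteins, and the laminin alpha 4 and alpha 5 chains are the main alpha chains of vascular basement membranes. The 9 genes described here were chosen by symbol: the alpha chains Lama2, Lama4 and Lama5, the beta chains Lamb1 and Lamb2, the gamma chain Lamc1, the nidogens Nid1 and Nid2, and Hspg2, which encodes perlecan. All 9 are among the 16533 genes of the deposited count tables, and all 9 passed the filter on low counts, which left 16523 genes.

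RNA was sequenced from inferior vena cavae with their thrombi, taken 24 h after the vein was ligated, a mouse model of deep vein thrombosis. The mKO mice were Stingf/f Lyzm-Cre+/-, in which Cre from the lysozyme M locus acts on floxed genes in the myeloid lineage (neutrophils, monocytes, macrophages), and the control mice were Stingf/f, so both groups carry the floxed Sting allele and both were ligated. Each group has 3 libraries, each from 3 thrombi pooled because 1 gave too little RNA, and p-values here speak of pool-to-pool variation, not of single mice. Age, sex and strain background are unstated in the sources at hand, and no unligated vein was analysed here. Cre acts in myeloid cells, whereas basement membranes are made mainly by wall cells. The comparison thus addresses the surroundings of the cells in which Sting was targeted.

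Library totals ranged from 158579864 to 180068483 counts, and globin transcripts took 21.2% to 27.1% of them. Sting1 itself had 22.7, 21.4 and 28.7 CPM (read counts scaled to a common library size) in mKO libraries 1 to 3, against 25.1, 31.4 and 27.1 CPM in control libraries 1 to 3, so that the groups overlapped (log2 fold change -0.20, SE 0.14, edgeR adjusted p = 0.579). That count covers all exons and all cells, and cannot show a deletion limited to myeloid cells. Of the 16523 genes tested, 0 passed an adjusted p of 0.05 by edgeR's quasi-likelihood test (0% called); 1960 had an unadjusted p under 0.05. DESeq2, run as an alternative, called 462 of the 16514 genes to which it gave an adjusted p. The median log2 fold change of all genes, mKO over control, was -0.030.

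Transcripts of 8 of the 9 genes (54.1% of all genes had a log2 fold change below 0) averaged lower in mKO veins than in control veins, at folds of 0.512 to 0.849, and Nid2 averaged higher; none of the 9 passed the test. Groups did not overlap for 5 genes, Lama2, Lama4, Lamb1, Lamc1 and Nid1, each lower in all 3 mKO libraries than in any control library, where 9.39% of all genes did so; 0 of the 9 were higher in all 3, against 8.76% of all genes. At an unadjusted p under 0.05, 7 of the 9 were lower and 0 higher, against 6.26% of all genes lower and 5.6% higher. The edgeR adjusted p ran from 0.255 for Lama2 to 0.628 for Hspg2, and DESeq2 called 1 of the 9, Lama2, lower and 0 higher, where it called 1.33% of genes lower and 1.47% higher (2.8% in either direction). The median log2 fold change of the 9 was -0.41. The 9 genes share cells of origin, so their values are not independent of each other, and in bulk tissue fewer cells of a type and less RNA per cell cannot be told apart. Of the 9, the number under an unadjusted p of 0.05 dropped to 2 without mKO library 1, without mKO library 2 or without control library 2.

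**Figure D1:**
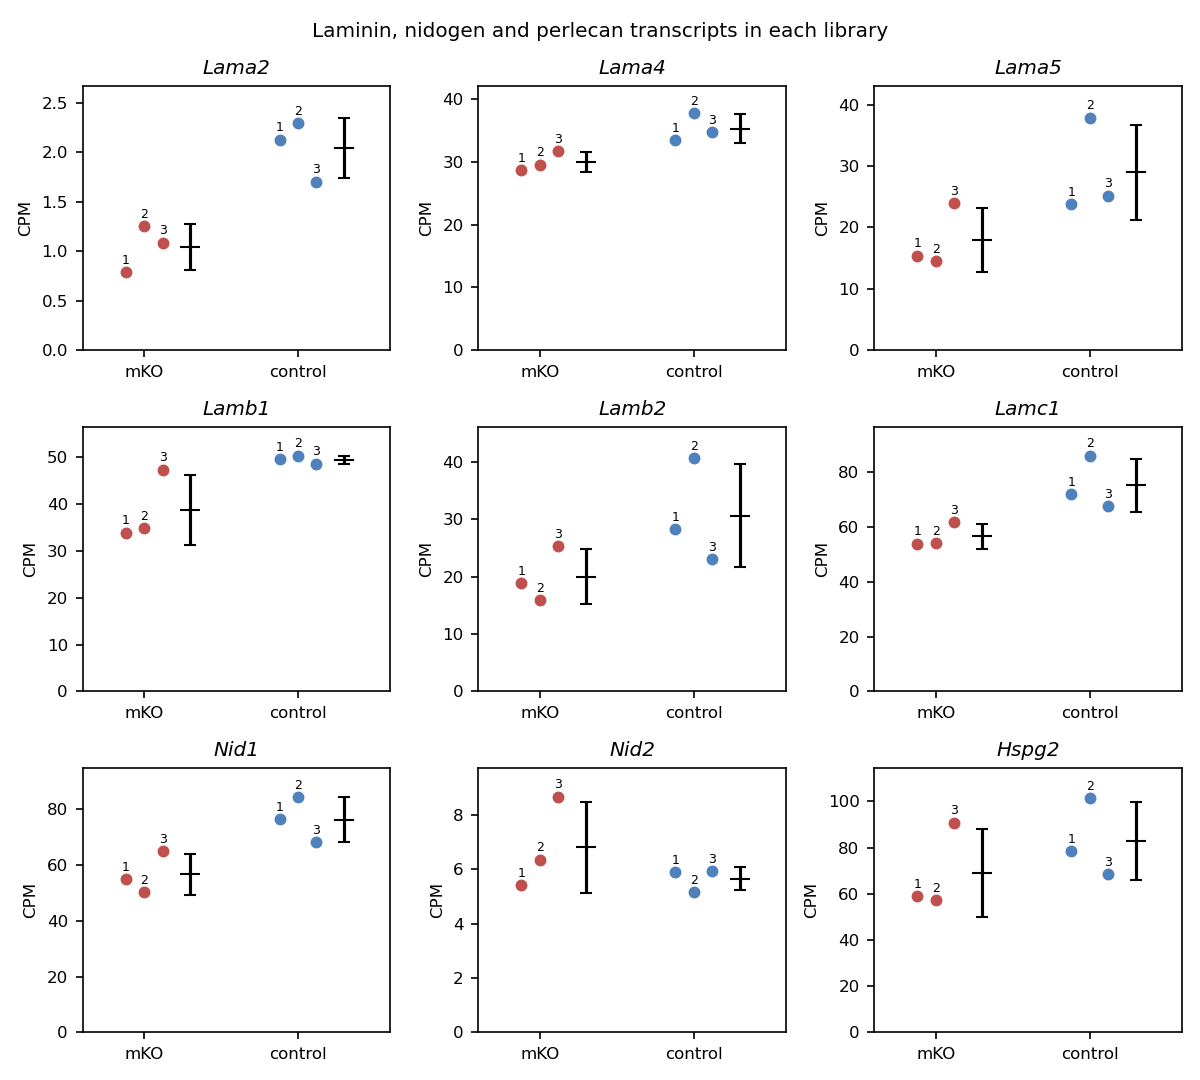
CPM of each gene in the 3 mKO (red, left) and 3 control (blue, right) libraries, numbered by replicate, with the mean ± SD beside each group. mKO library 3 is the highest mKO library for 8 of 9 genes and control library 2 the highest control library for 8 of 9.

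Among the alpha chains, Lama2 (ENSMUSG00000019899, chromosome 10), the chain of muscle and peripheral nerve basement membranes whose loss causes muscular dystrophy, had the lowest level per coding length and, of the 9, the largest fold difference. It had 0.792, 1.26 and 1.09 CPM in mKO libraries 1 to 3, against 2.13, 2.30 and 1.70 CPM in control libraries 1 to 3. The highest mKO library thus lay below the lowest control library, on counts of 137 to 419 reads. Lama2 averaged 1.05 ± 0.235 CPM in mKO and 2.04 ± 0.306 CPM in control (SD, n = 3 each), a fold of 0.512. By edgeR this is a log2 fold change of -0.97 (SE 0.25, adjusted p = 0.255), and by DESeq2 one of -0.94 (SE 0.27, adjusted p = 0.0273). Lama4 (ENSMUSG00000019846, chromosome 10), the chain of endothelial and microvascular laminin, had the narrowest range over the 6 libraries on the log2 scale. It had 28.6, 29.5 and 31.6 CPM in mKO libraries 1 to 3, against 33.4, 37.7 and 34.7 CPM in control libraries 1 to 3. The groups were separate by a small step, with means of 29.9 ± 1.55 CPM in mKO and 35.2 ± 2.24 CPM in control (SD, n = 3 each), or a log2 fold change of -0.24 (SE 0.10, edgeR adjusted p = 0.407). Lama5 (ENSMUSG00000015647, chromosome 2), the chain that in mouse venules marks sites where few leukocytes cross, had 15.4, 14.5 and 24.0 CPM in mKO libraries 1 to 3, against 23.8, 37.9 and 25.2 CPM in control libraries 1 to 3. mKO library 3 stood just above control library 1, so the groups overlapped, and control library 2 was far above all others. The log2 fold change was -0.69 (SE 0.25, edgeR adjusted p = 0.371), and it was -0.45 without control library 2.

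Of the beta and gamma chains, Lamb1 and Lamc1 were separate between groups and Lamb2 was not. Lamb1 (ENSMUSG00000002900, chromosome 12), the widely expressed beta chain, had 33.9, 34.9 and 47.4 CPM in mKO libraries 1 to 3, against 49.6, 50.4 and 48.7 CPM in control libraries 1 to 3. The control pools were nearly equal, at 49.5 ± 0.867 CPM (SD, n = 3), and mKO library 3 fell just short of them while the other two mKO pools lay well below; the log2 fold change was -0.36 (SE 0.15, edgeR adjusted p = 0.406). Lamb2 (ENSMUSG00000052911, chromosome 9), the beta chain of the neuromuscular synapse, the kidney filter and the smooth muscle layer of vessels, had 18.8, 15.9 and 25.3 CPM in mKO libraries 1 to 3, against 28.2, 40.6 and 23.1 CPM in control libraries 1 to 3. Its groups overlapped, because mKO library 3 exceeded control library 3, and the log2 fold change of -0.61 (SE 0.25, edgeR adjusted p = 0.407) was -0.36 without control library 2. Lamc1 (ENSMUSG00000026478, chromosome 1), the gamma chain of nearly all vascular laminins, had 53.8, 53.9 and 61.7 CPM in mKO libraries 1 to 3, against 71.8, 85.9 and 67.5 CPM in control libraries 1 to 3. The mKO pools were close together and all below control, with means of 56.5 ± 4.54 CPM in mKO and 75.1 ± 9.62 CPM in control (SD, n = 3 each), or a log2 fold change of -0.41 (SE 0.13, edgeR adjusted p = 0.327).

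Both nidogens bind the laminin gamma chain, yet their transcripts differed in direction. Nid1 (ENSMUSG00000005397, chromosome 13) had 54.8, 50.3 and 64.9 CPM in mKO libraries 1 to 3, against 76.3, 84.4 and 68.1 CPM in control libraries 1 to 3. All 3 mKO pools lay below all 3 control pools, with a log2 fold change of -0.43 (SE 0.14, edgeR adjusted p = 0.333). Nid2 (ENSMUSG00000021806, chromosome 14) had 5.43, 6.36 and 8.67 CPM in mKO libraries 1 to 3, against 5.89, 5.17 and 5.93 CPM in control libraries 1 to 3. Its groups overlapped, and mKO library 3 carried most of the difference: the log2 fold change was 0.27 (SE 0.19, edgeR adjusted p = 0.575), and 0.057 without that library. Hspg2 (ENSMUSG00000028763, chromosome 4), perlecan, had 58.9, 57.3 and 90.8 CPM in mKO libraries 1 to 3, against 78.4, 101 and 68.5 CPM in control libraries 1 to 3. Here mKO library 3 exceeded 2 of the 3 control libraries, and the log2 fold change was -0.26 (SE 0.22, edgeR adjusted p = 0.628); it was -0.51 without mKO library 3 and -0.090 without control library 2.

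To compare the genes with each other, CPM was divided by the length of the longest coding sequence, in kb, of each gene in GENCODE M21. On this scale Nid1 had the highest level, at 15.2 ± 1.99 CPM per kb in mKO and 20.4 ± 2.18 CPM per kb in control (SD, n = 3 each). Lamc1 came next, with 11.7 ± 0.942 CPM per kb in mKO and 15.6 ± 2.00 CPM per kb in control, ahead of Lamb1, with 7.04 ± 1.37 CPM per kb in mKO and 9.004 ± 0.158 CPM per kb in control. Those 3 did not overlap with each other in either group. Lama4 (5.49 ± 0.284 CPM per kb in mKO, 6.47 ± 0.411 in control), Hspg2 (5.25 ± 1.44 in mKO, 6.30 ± 1.29 in control) and Lamb2 (3.71 ± 0.889 in mKO, 5.68 ± 1.67 in control) formed a middle set in which Lama4 overlapped with Hspg2, and Hspg2 with Lamb2, in both groups. Lama5 had 1.61 ± 0.468 CPM per kb in mKO and 2.60 ± 0.694 in control, and Nid2 had 1.62 ± 0.397 CPM per kb in mKO and 1.35 ± 0.102 in control; this pair overlapped in mKO and was separate in control. Lama2 was last in both groups, at 0.112 ± 0.0252 CPM per kb in mKO and 0.218 ± 0.0327 CPM per kb in control. With the merged exon length in place of the coding length, Nid1 and Lamc1 kept the top places. Lama5, Nid2 and Lama2 kept the low ones in the control group. Hspg2 (4.82 CPM per exon kb in mKO, 5.79 in control) and Lamb2 (3.29 in mKO, 5.04 in control) passed Lama4 (2.48 in mKO, 2.92 in control). Hspg2 also passed Lamb1 (3.91 in mKO, 4.995 in control) in both groups, and Lamb2 passed Lamb1 narrowly in control only. The order of the middle genes thus rests on the choice of length.

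Ratios within a library need no scaling between libraries, and 5 pairs were compared with exact two-sided permutation tests, for which 3 against 3 allows no p below 0.1. The Nid1 to Nid2 ratio of read counts was 10.1, 7.92 and 7.48 in mKO libraries 1 to 3, against 12.96, 16.3 and 11.5 in control libraries 1 to 3. The ratio was lower in every mKO library than in any control library, with a difference of -0.67 on the log2 scale (exact permutation p = 0.1, 0.25 adjusted over the 5 ratios). The Lama2 to Lama4 ratio was 0.0277, 0.0426 and 0.0344 in mKO libraries 1 to 3, against 0.0638, 0.0609 and 0.0492 in control libraries 1 to 3. These groups did not overlap either, with a difference of -0.75 (exact permutation p = 0.1, 0.25 adjusted). The other ratios overlapped between groups. For Lama4 to Lama5 the log2 difference was 0.46 (exact permutation p = 0.3), for Lamb1 to Lamb2 it was 0.23 (exact permutation p = 0.4), and for Hspg2 to Lamc1 it was 0.13 (exact permutation p = 0.6). Control library 2 had the lowest ratio of Lama4 to Lama5, 0.996, and of Lamb1 to Lamb2, 1.24, of the 6 libraries.

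**Figure D2:**
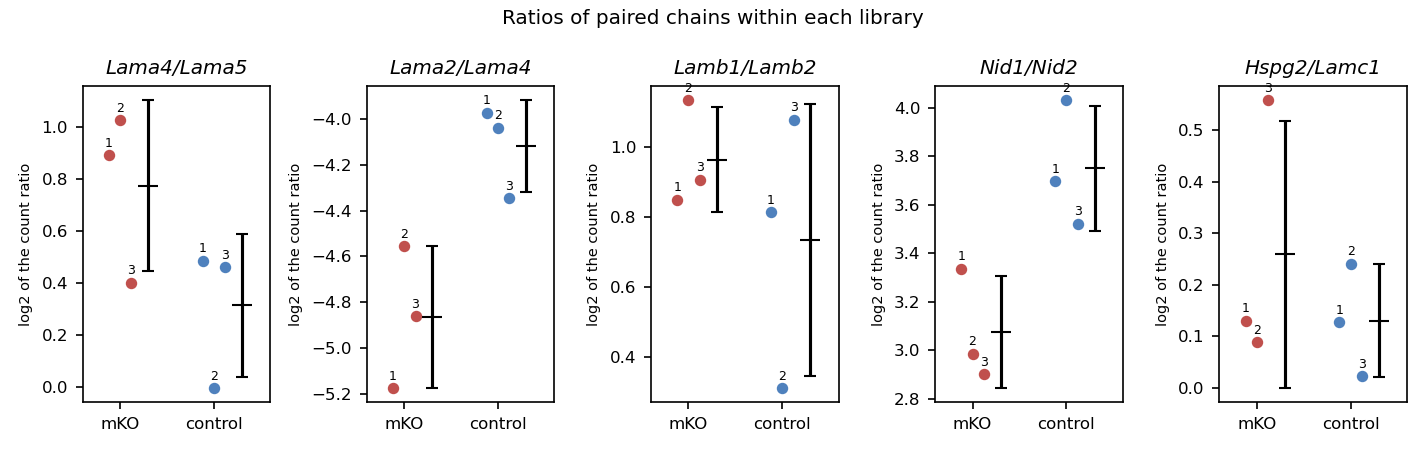
Log2 of the ratio of read counts of 2 genes in each library, numbered by replicate, for mKO (red, left) and control (blue, right), with mean ± SD; the vertical axes do not start at 0. The Lama2/Lama4 and Nid1/Nid2 ratios are separate between groups, with log2 differences of -0.75 and -0.67, and the other 3 overlap.

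The promoters of the 6 members with an entry in RefSeq (build GRCm38.p6) were read to see whether genes with like profiles also share simple promoter letters. Shown are Nid1, the member nearest to the median profile, Hspg2 and Lama5, which overlapped between groups, and Lamb2, for its different base composition. Each is the longest stretch of the 250 bases before the RefSeq start that lies outside annotated exons and the gene itself. Such a stretch need not adjoin the start. It is given 5′ to 3′ on the gene's strand. Capitals mark the GC box GGGCGG and the CCAAT box CCAAT on either strand, which do not overlap each other here.
Nid1 (chr13:13437352-13437550, plus strand): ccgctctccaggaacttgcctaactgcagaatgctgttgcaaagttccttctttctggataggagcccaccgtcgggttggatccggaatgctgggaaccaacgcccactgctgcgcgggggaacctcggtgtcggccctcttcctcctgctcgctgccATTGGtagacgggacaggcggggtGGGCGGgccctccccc
Hspg2 (chr4:137468553-137468750, plus strand): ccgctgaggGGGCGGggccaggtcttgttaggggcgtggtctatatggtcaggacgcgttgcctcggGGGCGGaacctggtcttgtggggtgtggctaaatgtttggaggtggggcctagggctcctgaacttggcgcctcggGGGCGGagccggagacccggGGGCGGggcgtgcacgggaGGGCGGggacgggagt
Lama5 (chr2:180225905-180226109, minus strand): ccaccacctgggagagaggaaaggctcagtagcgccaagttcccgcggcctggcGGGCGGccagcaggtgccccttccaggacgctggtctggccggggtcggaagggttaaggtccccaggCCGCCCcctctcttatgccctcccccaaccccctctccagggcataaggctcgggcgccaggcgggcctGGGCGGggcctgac
Lamb2 (chr9:108479612-108479735, plus strand): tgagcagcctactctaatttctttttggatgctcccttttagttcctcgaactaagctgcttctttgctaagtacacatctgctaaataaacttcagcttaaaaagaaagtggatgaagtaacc
Hspg2 shows 5 GC boxes in 198 bases, Lama5 shows 3 in 205 bases, and Nid1 shows 1 GC box and 1 CCAAT box in 199 bases. Lamb2 shows neither in 124 bases, and 37.9% of its bases are G or C, against 63.8% to 71.7% in the other sequences shown. Over the full 250 bases and both strands, the GC box was found in 4 of the 6 members (Hspg2, Lama5, Lamb1 and Nid1) and in 32.7% of 32817 RefSeq promoters. The CCAAT box was found in 2 of 6 (Lamb1 and Nid1) and in 33.8% of promoters, and the ETS core CCGGAA in 1 of 6 (Nid1) and in 12% of promoters. The TATA box TATAAA (12.4% of promoters) and the AP-1 site TGANTCA (6.75%) were found in 0 of 6. No promoter sequence was used for Lama4, Lamc1 and Nid2.

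Across libraries the profiles of the 9 genes were alike to differing degrees, and Lama2 and Nid2 stood farthest from their median. Each profile was taken as log2 CPM minus its mean over the 6 libraries, and likeness as the root mean square distance between profiles in log2 units. Lamc1 and Nid1, which encode binding partners, were the closest pair of the 36, at a distance of 0.062, followed by Lamb1 and Nid1 at 0.107. Lama2 and Nid2 were farthest apart, at 0.663. They also lay farthest from the median profile of the 9, at 0.359 and 0.372. The others ranged from 0.061 for Nid1 to 0.215 for Lama5. Some of these others were also far from each other: Lama4 and Lama5 lay at 0.338, where Lama2 and Lamc1 had 0.348. The median profile was -0.33, -0.32 and 0.064 in mKO libraries 1 to 3, against 0.15, 0.40 and 0.058 in control libraries 1 to 3, so mKO library 3 was level with control library 3. The summed level of the 9 genes was 270.5, 264.0 and 355.5 CPM in mKO libraries 1 to 3, against 369.6, 445.8 and 343.3 CPM in control libraries 1 to 3, and therefore overlapped. Of 13885 other genes with a mean of at least 1 CPM, the 8 nearest to the median profile were Osmr, the oncostatin M receptor, Pear1, a platelet and endothelial receptor, Dag1, dystroglycan, and Syde1, Alkbh8, Tanc1, Farp1 and Zbtb38. Their distances ran from 0.037 to 0.047, all below the 0.061 of Nid1, the nearest member. Of the 8, Dag1 is itself a laminin receptor, with 32.8 ± 4.27 CPM in mKO and 42.0 ± 4.85 CPM in control (SD, n = 3 each).

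Markers of several cell types averaged lower in mKO along with these genes, those of endothelium and smooth muscle among them. The 10 endothelial markers, all measured, summed to 708, 837 and 874 CPM in mKO libraries 1 to 3, against 961, 1133 and 941 CPM in control libraries 1 to 3, and the 9 smooth muscle markers to 1557, 1572 and 2160 CPM in mKO, against 2252, 4143 and 2284 CPM in control. Neither sum overlapped between groups. In the mean smooth muscle profile each marker weighs the same. There mKO library 3 (0.20) was higher than control libraries 1 (0.072) and 3 (-0.082). The mean endothelial profile stayed separate, by a small step from mKO library 3 (-0.044) to control library 3 (0.073). Vwf (means of 268 CPM in mKO and 341 CPM in control) and Pecam1 (188 and 223 CPM) had the highest levels in the endothelial sum. No sum without them was taken. By single marker, 4 of 10 endothelial and 0 of 9 smooth muscle markers were lower in mKO without overlap, against 9.39% of all genes. No marker of either list was near 0: the lowest averages were those of Cldn5 and Synpo2. Log2 fold changes were below 0 for 10 of 10 endothelial and 9 of 9 smooth muscle markers, where 54.1% of all genes were below 0. The medians were -0.29 and -0.79. The log2 fold changes of the endothelial markers Tek (-0.052) and Tie1 (-0.047) lay close to 0. By edgeR 0 passed, and DESeq2 called 2 endothelial markers, Cldn5 and Ramp2, lower, where it called 1.33% of all genes lower. Control library 2 was highest in both sums, as it was for 8 of the 9 members, and mKO library 3 was the highest mKO library in both, as it was for 8 of the 9. The 5 pericyte markers summed to 217, 149 and 368 CPM in mKO, against 178, 303 and 152 CPM in control, and overlapped. The 7 fibroblast markers summed to 837, 501 and 794 CPM in mKO, against 830, 1007 and 526 CPM in control, and overlapped as well. Lama2 is also a chain of skeletal muscle and Schwann cell basement membranes, but it did not follow their markers: the 8 skeletal muscle markers summed to 29.0, 5.47 and 195 CPM in mKO libraries 1 to 3, against 4.39, 5.51 and 55.3 CPM in control libraries 1 to 3, and the 6 Schwann markers to 87.0, 142 and 104 CPM in mKO, against 94.1, 109 and 143 CPM in control. mKO library 3, highest for Nid2, stood apart also by its low sum of 5 sympathetic neuron markers, 5.15 CPM, where the others had 83.4 to 279 CPM. Platelet markers, from the thrombus, summed to 2987, 4441 and 3020 CPM in mKO, against 3898, 5034 and 5780 CPM in control.

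Fat and lymphatic markers also averaged lower in mKO, and adipocytes carry basement membranes of their own. The 5 adipocyte markers, all measured, summed to 126, 71.9 and 117 CPM in mKO libraries 1 to 3, against 185, 189 and 144 CPM in control libraries 1 to 3. These sums did not overlap. By single marker, 2 of the 5, Cidec and Pck1, were lower in mKO without overlap, against 9.39% of all genes. Log2 fold changes were below 0 for 5 of 5 (54.1% of all genes), with a median of -0.58. DESeq2 called 1 of the 5 lower, where it called 1.33% of all genes lower. This was Pck1, an enzyme of glyceride synthesis in fat (log2 fold change -1.88, edgeR adjusted p = 0.226, DESeq2 adjusted p = 1.14e-05). Of the 4 lymphatic markers, Prox1, Lyve1 and Flt4 had groups that did not overlap, lower in mKO, against 9.39% of all genes. Their log2 fold changes were -0.93, -0.88 and -0.87. DESeq2 called all 3 lower (adjusted p = 0.012, 3.38e-05 and 1.56e-05), against 1.33% of all genes, while 0 passed by edgeR. The fourth, Pdpn, which other cells also express, was higher in all 3 mKO libraries (log2 fold change 0.36, edgeR adjusted p = 0.369), so the summed lymphatic level overlapped, at 111, 97.6 and 87.2 CPM in mKO and 109, 103 and 103 CPM in control. Macrophage and erythroid markers lay the other way. Log2 fold changes were above 0 for 5 of 5 macrophage and 4 of 4 erythroid markers, with medians of 0.23 and 0.35. Of the 16523 genes tested, 7576 were above 0. Among the markers, Adgre1 (0.052), Mrc1 (0.056) and Hba-a1 (0.086) lay close to 0. Groups did not overlap for 2 markers of each list, higher in mKO, against 8.76% of all genes. DESeq2 called 1 of each higher, Cd68 and Slc4a1, where it called 1.47% of all genes higher. The part that any of these cell types has in the member differences was not tested.

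**Figure D3:**
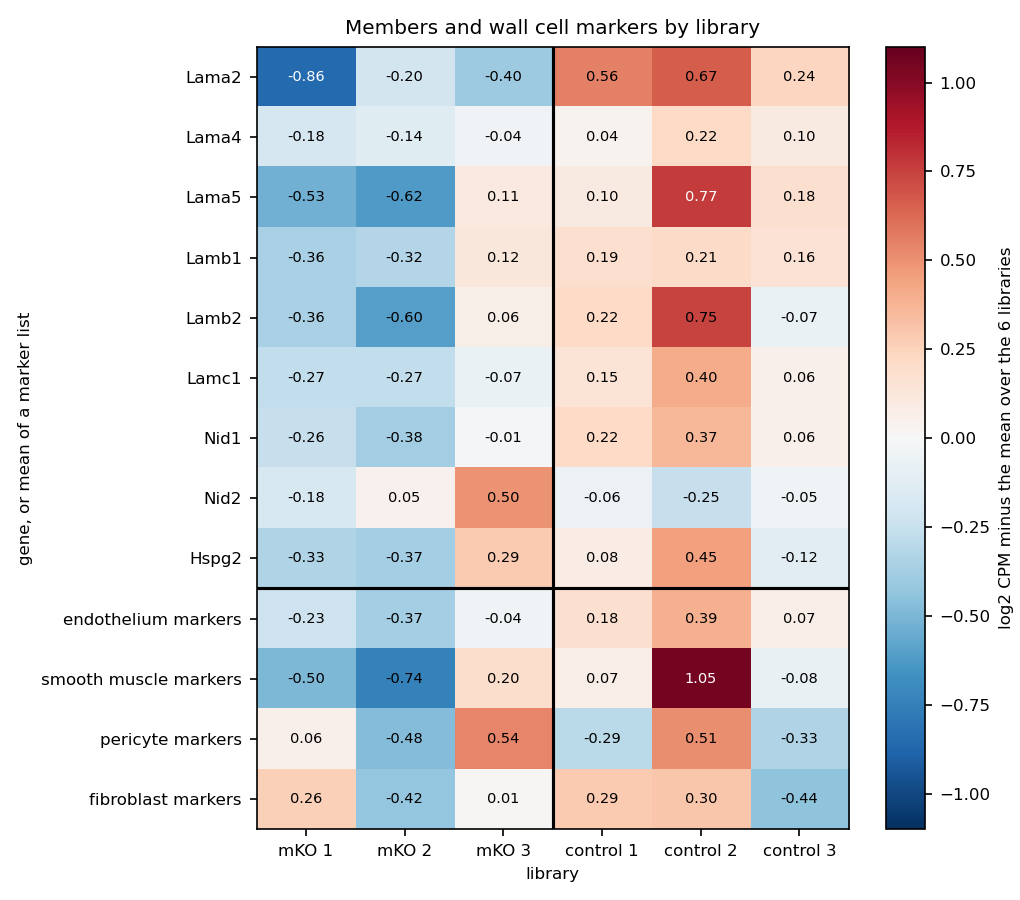
Log2 CPM minus the mean over the 6 libraries, for each gene (above the horizontal line) and as the mean of 4 marker lists (below it), in mKO and control libraries. Control library 2 is the most positive column for 8 of 9 genes and for the endothelial and smooth muscle lists, with 1.05 for smooth muscle, while Nid2 is highest in mKO library 3, at 0.50.

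When a wall score, the mean of the endothelial and smooth muscle marker profiles, entered the edgeR fit as a covariate, the median log2 fold change of the 9 genes was -0.12 in place of -0.41. Lama2 kept most of its difference, at -0.84 (SE 0.35, adjusted p = 0.712), and Nid2 stayed above 0, at 0.37 (SE 0.25, adjusted p = 0.831). Lamc1 and Nid1 had -0.18 (SE 0.14) each, Lama5 had -0.12 (SE 0.14) and Lamb2 -0.015 (SE 0.12). Hspg2 changed sign, to 0.23 (SE 0.16, adjusted p = 0.838). The score is made from RNA of the same libraries and differs between groups, so this fit describes the members at equal wall marker level and does not separate genotype from the amount of wall in a pool.

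**Figure D4:**
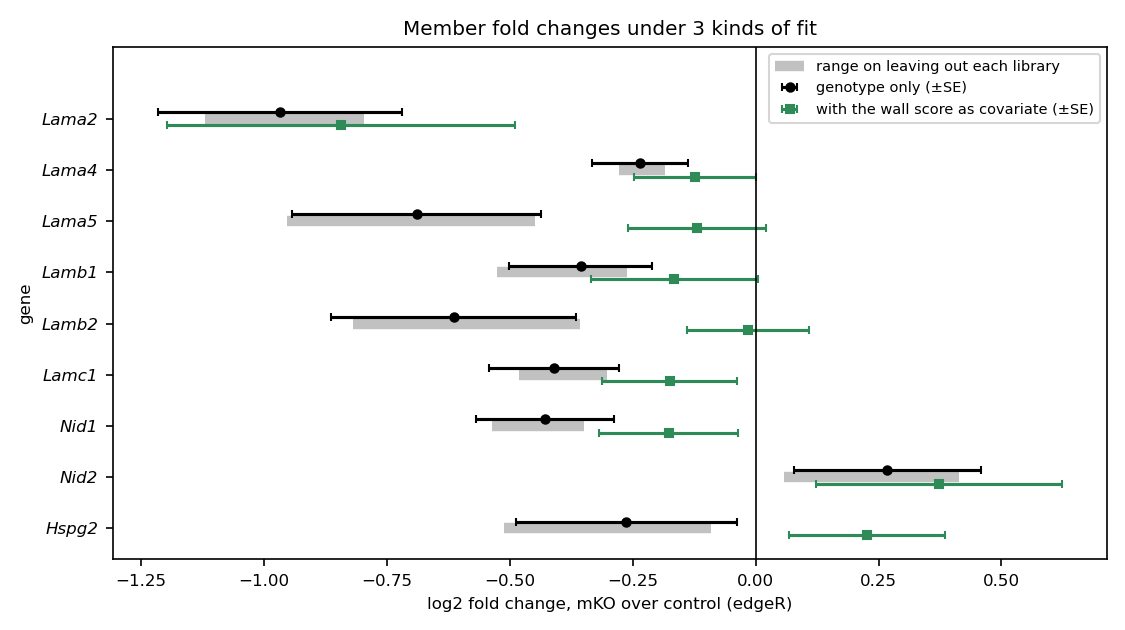
Log2 fold change, mKO over control, of each gene in the edgeR fit with genotype only (black, ± SE), over the fits that leave out 1 library each (grey bar, lowest to highest) and with the wall score added to the fit (green, ± SE). Lama2 stays at -0.84 with the covariate, Lamb2 is at -0.015, and Hspg2 is on the other side of 0.

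The other laminin chains described here were Lamb3, Lama3 and Lamc3, which do not belong to the main vascular laminins, and 0 of these 3 passed by edgeR or by DESeq2. Lamb3, a beta chain of epithelial laminin, had 7.77, 11.6 and 8.83 CPM in mKO libraries 1 to 3, against 7.04, 4.83 and 6.02 CPM in control libraries 1 to 3. Its 3 mKO libraries all lay above the 3 control libraries (log2 fold change 0.66, SE 0.20, edgeR adjusted p = 0.312). Lama3, an epithelial alpha chain, had a low level, 0.205 ± 0.0458 CPM in mKO and 0.462 ± 0.142 CPM in control (SD, n = 3 each). Its 3 mKO libraries all lay below the 3 control libraries (log2 fold change -1.17, SE 0.36, edgeR adjusted p = 0.312). Without overlap, 1 of these 3 chains was thus higher in mKO and 1 lower, against 8.76% and 9.39% of all genes. Lamc3 had 0.266 ± 0.146 CPM in mKO and 0.317 ± 0.0904 CPM in control. Lama1 was not analysed here. Of the epithelial and mesothelial markers Krt19, Msln, Upk3b and Wt1, Krt19 alone was measured, at 0.260 to 0.452 CPM in mKO and 0.587 to 1.32 CPM in control.

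All 17 laminin receptors listed were measured. Of these, 16 had a log2 fold change below 0, against 54.1% of all genes, and the median was -0.36. By edgeR 0 passed, and DESeq2 called 1, lower, against 1.33% of all genes. The one called was Itga3, the integrin alpha 3 subunit that binds alpha 5 laminins, with 16.4, 16.3 and 19.2 CPM in mKO libraries 1 to 3, against 32.8, 36.7 and 27.9 CPM in control libraries 1 to 3. Its groups were widely separate, with a log2 fold change of -0.91 (SE 0.13), an edgeR adjusted p of 0.134 and a DESeq2 adjusted p of 4.42e-06. Bcam, a laminin alpha 5 receptor of the immunoglobulin family, had a log2 fold change of -0.65 (SE 0.22, edgeR adjusted p = 0.354), Dag1 one of -0.35 (SE 0.13, edgeR adjusted p = 0.375), and Dmd, dystrophin, which links dystroglycan to actin, one of -0.64 (SE 0.27, edgeR adjusted p = 0.407). Groups did not overlap for 4 of the 17 receptors, each lower in mKO, where 9.39% of all genes were so.

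Of 24 other basement membrane genes listed, 17 were measured; 13 had a log2 fold change below 0 (54.1% of all genes) and 4 above, and the median was -0.35. By edgeR 0 passed, and DESeq2 called 2 lower and 0 higher, against 1.33% and 1.47% of all genes. Agrn, agrin, a heparan sulfate proteoglycan that binds laminin and dystroglycan, had 10.96, 10.5 and 15.7 CPM in mKO libraries 1 to 3, against 20.6, 20.6 and 18.4 CPM in control libraries 1 to 3 (log2 fold change -0.68, SE 0.17, edgeR adjusted p = 0.246, DESeq2 adjusted p = 0.0316). Ntn4, netrin 4, which binds the laminin gamma chain and opens laminin networks, had 12.04, 12.4 and 21.3 CPM in mKO libraries 1 to 3, against 27.5, 40.0 and 23.6 CPM in control libraries 1 to 3 (log2 fold change -0.99, SE 0.29, edgeR adjusted p = 0.312, DESeq2 adjusted p = 0.028). Neither gene overlapped between groups, and Ntn4 shared the high value of control library 2. Tinagl1, a matrix protein of vascular wall, had a log2 fold change of -0.60 (SE 0.18, edgeR adjusted p = 0.312) and did not overlap. Col4a1, a chain of the collagen IV network to which nidogen links laminin, had -0.50 (SE 0.21, edgeR adjusted p = 0.407) and overlapped.

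Enzymes that cut basement membranes, and their inhibitors, lay on both sides of 0. All 19 were measured, 9 with a log2 fold change above 0 and 10 below (54.1% of all genes), with a median of -0.0023. By edgeR 0 passed, and DESeq2 called 2 higher and 1 lower, against 1.47% and 1.33% of all genes. Mmp9, the gelatinase of neutrophils, which cuts collagen IV, had 920, 1012 and 747 CPM in mKO libraries 1 to 3, against 694, 375 and 480 CPM in control libraries 1 to 3 (log2 fold change 0.79, SE 0.25, edgeR adjusted p = 0.322, DESeq2 adjusted p = 0.0458). Ctsb, the lysosomal protease cathepsin B, had a log2 fold change of 0.51 (SE 0.16, edgeR adjusted p = 0.317, DESeq2 adjusted p = 0.011). Timp3, the metalloproteinase inhibitor that stays bound to matrix, had 52.7, 59.1 and 68.1 CPM in mKO libraries 1 to 3, against 104, 132 and 127 CPM in control libraries 1 to 3 (log2 fold change -1.01, SE 0.15, edgeR adjusted p = 0.134, DESeq2 adjusted p = 2.73e-07). Groups did not overlap for 2 of the 19, higher in mKO, and 1, lower, against 8.76% and 9.39% of all genes. These were the 3 called genes, both proteases higher and the inhibitor lower. The inhibitors Timp1 and Timp2 lay above 0, with log2 fold changes of 0.24 and 0.13, and overlapped. Adamts1, a protease of matrix proteoglycans, had -0.57 (SE 0.20, edgeR adjusted p = 0.358). The 5 neutrophil markers, a source of Mmp9, summed to 14910, 17664 and 12795 CPM in mKO, against 14526, 9096 and 11893 CPM in control, and their part in the Mmp9 difference was not tested.

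**Figure D5:**
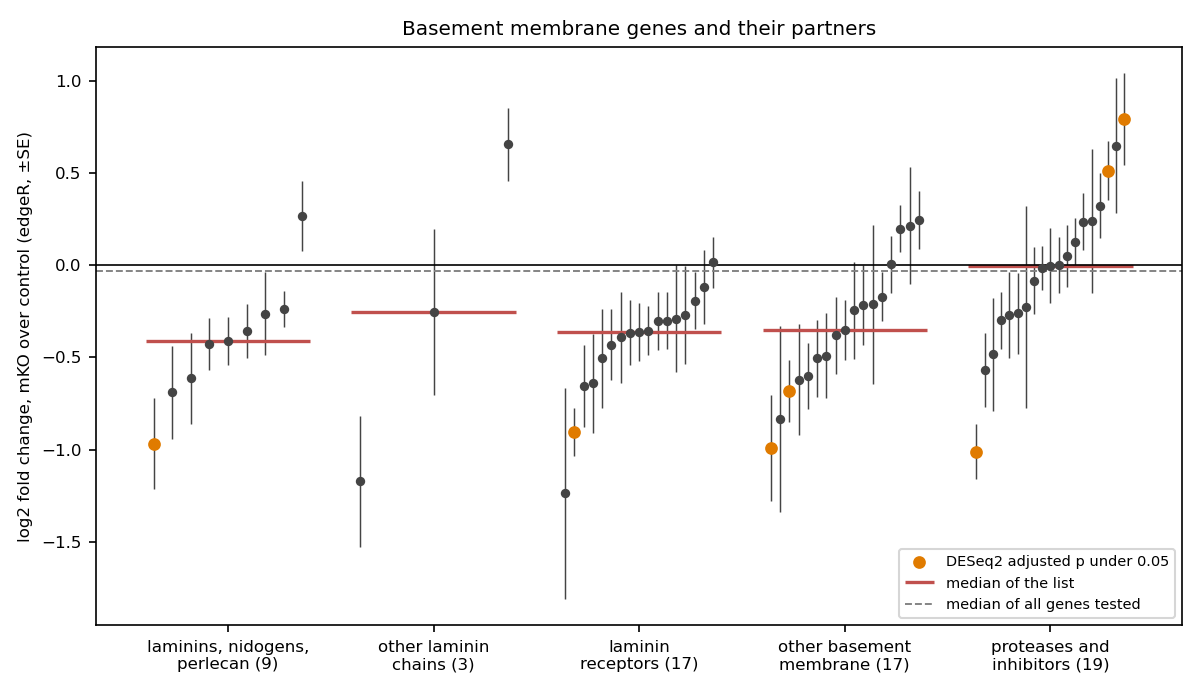
EdgeR log2 fold change, mKO over control, ± SE, of the 9 genes and of 4 related lists, ordered within each list; orange points have a DESeq2 adjusted p under 0.05, red lines are list medians and the dashed line is the median of all genes tested. The medians of the 9 genes (-0.41), receptors (-0.36) and other basement membrane genes (-0.35) lie below that of all genes (-0.030), and the protease and inhibitor median lies at -0.0023.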

How the data were processed

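Each library has 1 deposited table of raw counts per gene, whole numbers with no normalization. Per the submitters' processing notes, which give no roles, the tools were featureCounts 2.0.1, HISAT2 2.1.0, Trim Galore 0.4.0 and FastQC 0.11.8, and the build was GRCm39. The annotation and strand setting were not given in the sources used here, so antisense and overlapping genes cannot be told apart.

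Counts of all 6 libraries were fitted in R 4.3.3 with edgeR 4.0.16 (TMM, default expression filter, robust quasi-likelihood F-test, genotype only), adjusted by Benjamini-Hochberg over 16523 genes, with a threshold of 0.05. SE is the one implied by the F-test. Profiles used log2 CPM with a prior count of 2. DESeq2 1.42.0 (independent filtering at 0.05), limma 3.58.1 voom, other normalizations and filters, a replicate block, a wall score covariate, leaving out haemoglobin, immunoglobulin and mitochondrially encoded genes, and leaving out each library were alternatives. The edgeR and DESeq2 fits were tested on simulated data, where DESeq2 recovered more of the changed genes than edgeR and made more false calls. No pair of libraries agreed within sampling noise.

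The members and lists were chosen with earlier results of these data known. Named are all 9 members, the 4 genes with the smallest p of each related list and the 8 genes with the nearest profile. Lama3, Lamb3 and Lamc3 are also named, and a gene of the related lists is not reported here. Coding and exon lengths came from GENCODE M21, an earlier build than the counts, and were used as lengths only. Median counts per gene ran from 1255 to 1698 over the libraries, and member counts from 137 to 18505.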

Additional observations from a re-analysis of the deposited data

How the results depend on the processing

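Of 153 member values under 17 alternatives, 151 kept their direction and their side of the threshold. With 0 members past the threshold in the main fit, that count says little about the size of a difference. Lamb2, at -0.61 in the main fit and -0.015 with the wall score, counts as kept. Lama2 passed with DESeq2 (-0.94), and Hspg2 turned to 0.23 with the wall score as a covariate. With DESeq2, 1 member, 2 other basement membrane genes, 1 laminin receptor, 3 proteases or inhibitors and 462 of all genes passed, against 0 of each by edgeR. On leaving out each library, members past the threshold and those of each related list ranged from 0 to 0, and all genes from 0 to 7; the largest number came without control library 1, with 4 without mKO library 3 and 2 without control library 3. Log2 ratio differences ranged from 0.30 to 0.65 for Lama4/Lama5, -0.90 to -0.59 for Lama2/Lama4, 0.017 to 0.40 for Lamb1/Lamb2, -0.80 to -0.53 for Nid1/Nid2 and -0.0205 to 0.21 for Hspg2/Lamc1, whose sign turned without mKO library 3 (-0.0205). Replicate numbers are shared by title only: deviations of same-numbered libraries correlated at -0.14, -0.15 and -0.27, so the numbers were not taken as pairs. With the replicate block 0 members and 0 genes passed, the smallest member adjusted p was 0.561, and the member median was -0.41. With no normalization factors the median of all genes was -0.081 and that of the members -0.46. Causes of these shifts were not tested. Lama2, at 137 to 419 counts, has the largest counting error of the 9.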
